A study of Mus musculus with 12 samples.

Results

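The 10 genes described here encode membrane ADAM proteases, and they are Adam8, Adam9, Adam10, Adam12, Adam15, Adam17, Adam19, Adam22, Adam23 and Adam33. Each symbol matched 1 row of a table of 78317 gene IDs, and all 10 genes passed the filter on low counts that left 17130 genes to be tested. Adam19 was chosen by its fold change and adjusted p between the groups described here, and the other 9 were taken for belonging to the same family, with earlier results of these data known. The differences between the groups are therefore given as a description of the members and not as a new test of them. The libraries are bulk RNA-seq of heart ventricle from C57BL/6J mice. The injured-sire group holds 6 offspring of males that received a freezing injury of the heart on postnatal day 1, and the uninjured-sire group holds 6 offspring of males without that injury. Collection is labelled 3 wpp for every library, although the same label calls the animals adult. By the labels, 3 of 6 injured-sire animals and 4 of 6 uninjured-sire animals were male, but no sex, sire or litter is tied to a library. Replicate 16 of the injured-sire group is named in the labels as an outlier and was left out of the fit, so 5 libraries were set against 6, and its values are given apart.

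ADAM proteins are anchored in the membrane and carry a prodomain, a metalloprotease domain and a disintegrin domain. Those with an intact zinc-binding site cut the outer parts off other membrane proteins, a step called shedding, which releases growth factors and cytokines or starts the cleavage of Notch receptors. In the heart the family is known for the shedding of neuregulin and of the heparin-binding EGF-like growth factor, and Adam19 in mice is known for its part in the growth of the endocardial cushions that form valves and septa.

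The zinc-binding site is shown for each member whose transcript encodes it, because it divides the family into proteases and members without protease activity. The stretches are 63 bases of the coding strand, 5′ to 3′, from the longest coding transcript in GENCODE M21 (GRCm38), with the codons of the zinc-binding site's 3 histidines and of its glutamate in capitals.
Adam19: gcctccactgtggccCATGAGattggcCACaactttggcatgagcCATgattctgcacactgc
Adam12: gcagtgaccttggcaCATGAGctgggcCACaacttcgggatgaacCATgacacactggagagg
Adam33: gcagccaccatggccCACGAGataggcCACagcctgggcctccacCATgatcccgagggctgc
Adam8: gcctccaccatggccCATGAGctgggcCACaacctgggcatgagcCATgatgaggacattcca
Adam9: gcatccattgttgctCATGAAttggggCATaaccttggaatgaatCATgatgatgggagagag
Adam15: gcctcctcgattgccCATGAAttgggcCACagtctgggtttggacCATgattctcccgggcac
Adam10: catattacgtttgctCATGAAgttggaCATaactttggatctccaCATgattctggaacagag
Adam17: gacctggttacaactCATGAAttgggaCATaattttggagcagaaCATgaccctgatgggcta
The Adam19 stretch lies in exon 11 of 23 at chr11:46125035-46125097 on the plus strand, and that of Adam12 in exon 11 at chr7:133961143-133961205 on the minus strand. Adam33 at chr2:131055115-131055177, Adam8 at chr7:139987878-139987940, Adam9 at chr8:24990311-24990373 and Adam15 at chr3:89344765-89344827 also have it in exon 11, on the minus strand. In Adam17 it lies in exon 12 at chr12:21336717-21336779 on the minus strand. In Adam10 it is joined from exons 9 and 10, which lie within chr9:70754281-70761600 on the plus strand. Over these bases the other members matched Adam19 at 29 (Adam17) to 46 (Adam8) positions. The pattern was found in 8 members and in none of the 20 coding transcripts of Adam22 or the 3 of Adam23, the members known as receptors of the secreted LGI proteins rather than as proteases.

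The hearts of both groups contained mainly 5 of the 10 transcripts. In TPM, counts per transcript length scaled to 1 fixed total per library, Adam9 averaged 41.4 ± 3.61 over the 12 libraries (SD), Adam15 38.6 ± 3.03, Adam10 32.2 ± 3.01, Adam19 21.0 ± 4.57 and Adam17 16.1 ± 1.34. Together these 5 made up 92.5 to 95.5% of the summed TPM of the 10 genes in every library. The other 5 lay well below, with Adam33 at 3.33 ± 0.982 TPM, Adam22 at 2.40 ± 0.455, Adam8 at 1.45 ± 0.944, Adam12 at 1.01 ± 0.423 and Adam23 at 0.866 ± 0.200.

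Within this order 2 steps held in all 12 libraries, that between Adam10 and Adam19 and that between Adam17 and Adam33. Adam15 stood above Adam10 in 11 libraries, and Adam19 above Adam17 in 10. Adam9 and Adam15 changed places in 3 libraries, Adam33 and Adam22 in 3, Adam22 and Adam8 in 2, Adam8 and Adam12 in 4, and Adam12 and Adam23 in 3. The levels depend on the gene length used: with the longest GENCODE M21 coding transcript in place of the summed exon length, a choice made after the data had been seen, Adam15 came first and Adam17 came above Adam19, which then ranked 5 instead of 4.

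**Figure D1:**
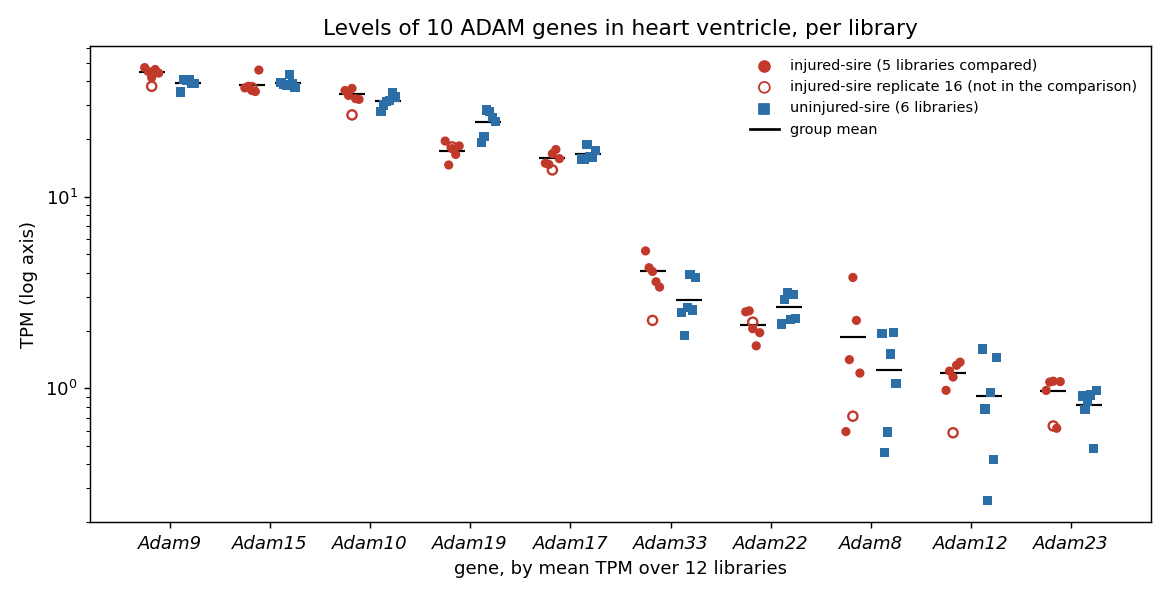
TPM (log axis) of the 10 ADAM genes in each library, ordered by mean over 12 libraries, with filled circles for the 5 injured-sire libraries compared, an open circle for replicate 16, squares for the 6 uninjured-sire libraries and a bar for each group mean. Adam9, Adam15, Adam10, Adam19 and Adam17 form an upper set, and the remaining 5 genes lie between 0.259 and 5.21 TPM.

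Adam19 (ENSMUSG00000011256, chromosome 11, 45946819 to 46038170, plus strand, GRCm39) was lower in hearts of offspring of injured males. In CPM, counts scaled to a common library size without regard to length, injured-sire replicates 12, 13, 14, 15 and 17 had 51.5, 38.3, 45.2, 43.8 and 48.1. The 6 uninjured-sire libraries had 54.3 at the lowest, 67.3 at the median and 75.7 at the highest. The groups thus did not overlap, with replicates 18 and 19 the 2 lowest of the uninjured-sire libraries. Replicate 16, which was left out of the fit, had 55.6 CPM, above all other injured-sire libraries and between the lowest and the second lowest uninjured-sire library.

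The group means of Adam19 were 45.4 ± 4.94 CPM (SD, n = 5) and 65.8 ± 8.58 CPM (SD, n = 6). The fitted log2 fold change was -0.53 ± 0.0887 (SE), which puts the injured-sire level at 69.0% of the uninjured-sire level, with a 95% confidence interval from -0.72 to -0.35. These values and the adjusted p that picked the gene (0.0132, edgeR quasi-likelihood test with Benjamini-Hochberg adjustment) describe the choice. The next member outside the threshold of 0.05 was Adam22, with an adjusted p of 0.37 in edgeR. Adam19 was the only member called of 10, where 0.105% of all genes tested were called, 0.0525% lower. It was also the only member whose groups did not overlap, where 0.625% of all genes lay wholly lower and 0.426% wholly higher. In TPM, which is scaled differently, the Adam19 groups overlapped slightly, from 14.6 to 19.5 in the injured-sire and from 19.1 to 28.3 in the uninjured-sire libraries. Replicate 16 had 18.2 TPM, inside the injured-sire range and below all uninjured-sire libraries, so its place depends on the scaling. In bulk tissue, less RNA per cell and fewer cells that make it cannot be told apart.

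The call was lost with 3 of the 11 single libraries left out, with adjusted p of 0.059 without injured-sire replicate 13, 0.0631 without 14 and 0.0510 without uninjured-sire replicate 23 in edgeR, at log2 fold changes of -0.48, -0.53 and -0.53. With replicate 16 included it stood at -0.48 ± 0.0908 (SE, edgeR adjusted p = 0.0436), in a fit that called 0.0836% of the genes tested. Of 3 fits with a covariate, that with a score of Y-linked genes kept the call (-0.57, edgeR adjusted p = 0.0282). Adam19 was not called with a score of clock genes (-0.47 ± 0.147, SE, edgeR adjusted p = 0.607) or with 1 surrogate variable (-0.45 ± 0.0981, edgeR adjusted p = 0.0921). The clock genes were chosen with earlier results of these data known, and with their score 0 of all genes tested were called. The part of the clock in the level of Adam19 was not tested. The sum of 4 Y-linked genes had a median of 3.42 CPM in the injured-sire libraries compared and 194 CPM in the uninjured-sire libraries. It was 219 CPM in replicate 16, so without that library the injured-sire group holds a smaller share of males than the labels give.

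**Figure D2:**
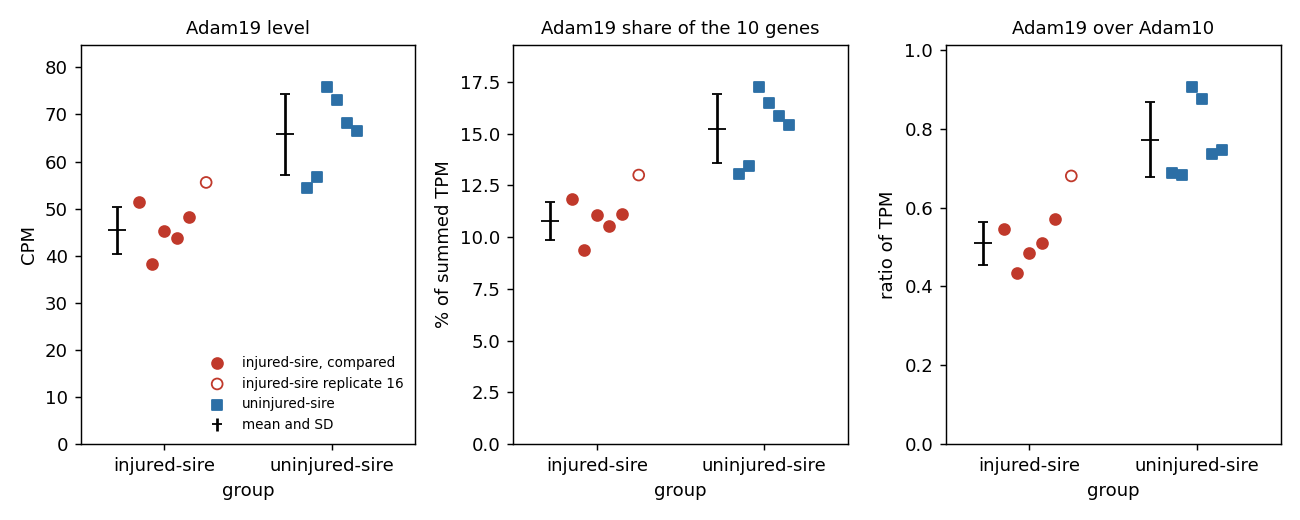
Adam19 per library as CPM, as a percentage of the summed TPM of the 10 ADAM genes and as a ratio of TPM to Adam10, in injured-sire (circles, replicate 16 open) and uninjured-sire libraries (squares), with the mean and SD of the libraries compared. In each panel the 5 injured-sire libraries lie below the 6 uninjured-sire libraries, and replicate 16 lies above the other injured-sire libraries.

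Set against other members of the same library, Adam19 gave values that do not depend on scaling between libraries. They rest on the same Adam19 counts that chose the gene, so they restate its difference and are no separate check of it. How often such shares or ratios fail to overlap over all genes was not counted. It took 11.9, 9.36, 11.1, 10.5 and 11.1% of the summed TPM of the 10 genes in injured-sire replicates 12, 13, 14, 15 and 17. In the uninjured-sire libraries it took 13.1% at the lowest, 15.6% at the median and 17.2% at the highest, and replicate 16 lay just below that lowest value. The sum itself overlapped between the groups, at 156 to 165 TPM in the injured-sire and 146 to 170 TPM in the uninjured-sire libraries. In replicate 16 the sum was 140 TPM, below all of these.

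The ratio of Adam19 to Adam10, the sheddase of Notch receptors and of many adhesion proteins, was 0.433 to 0.572 in the injured-sire and 0.682 to 0.905 in the uninjured-sire libraries, without overlap. The ratio to Adam9 did not overlap either, at 0.325 to 0.426 and 0.501 to 0.700 in the same 2 groups, where Adam9 itself had a fitted log2 fold change of 0.15. Replicate 16 lay between the groups in both ratios, with 0.680 for Adam10 and 0.483 for Adam9. Against Adam17 the ratio overlapped, at 0.942 to 1.31 in the injured-sire and 1.22 to 1.72 in the uninjured-sire libraries, and against Adam15 it overlapped too.

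The other general sheddases differed little. Adam10 (ENSMUSG00000054693, chromosome 9, 70586279 to 70687511) had 65.2, 61.1, 64.4, 59.1 and 58.2 CPM in injured-sire replicates 12, 13, 14, 15 and 17, and a lowest, median and highest value of 54.6, 57.7 and 63.8 CPM in uninjured-sire libraries. Its groups overlapped, and its log2 fold change was 0.07 ± 0.0578 (SE, 95% confidence interval from -0.05 to 0.19). Replicate 16 had 56.4 CPM of Adam10, below the other 5 of its group. Adam17 (ENSMUSG00000052593, chromosome 12, 21373510 to 21423633), the enzyme that releases tumour necrosis factor and several EGF-receptor ligands, had 39.7, 38.8, 42.8, 46.7 and 41.5 CPM in the same 5 libraries. The uninjured-sire libraries had 42.5, 44.3 and 50.1 CPM of Adam17 as lowest, median and highest. Those groups overlapped, with a log2 fold change of -0.11 ± 0.0666 (SE, interval from -0.25 to 0.03), and replicate 16 had 42.4 CPM. For Adam10 and Adam17 the intervals exclude a shift as large as that of Adam19.

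Adam9 (ENSMUSG00000031555, chromosome 8, 25439627 to 25506943), a widely expressed protease, had 72.0, 68.3, 61.4, 70.3 and 66.8 CPM in injured-sire replicates 12, 13, 14, 15 and 17. It had 57.9, 61.0 and 65.6 CPM as lowest, median and highest in uninjured-sire libraries, and 66.6 CPM in replicate 16. The groups overlapped in CPM, with only injured-sire replicate 14 inside the uninjured-sire range, and the log2 fold change was 0.15 ± 0.0568 (SE). In TPM the same gene did not overlap between the 5 and 6 libraries, at 41.8 to 47.2 and 35.2 to 40.9, while replicate 16 had 37.7. The share of all genes without overlap in TPM was not counted, so nothing is read from this. Adam15 (ENSMUSG00000028041, chromosome 3, 89245849 to 89257303), a protease with a cell-binding motif in its disintegrin domain, ranged from 78.6 to 103 CPM in injured-sire and from 86.1 to 97.6 CPM in uninjured-sire libraries. Its highest library, injured-sire replicate 17, was the only one of the 5 compared above the uninjured-sire range, and the other 4 lay below it. Replicate 16, at 97.8 CPM, also lay just above that range. The log2 fold change of Adam15 was -0.08 ± 0.0666 (SE).

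Adam12 and Adam33, which form a branch of the family with Adam19, had fitted values of the opposite sign. Adam33 (ENSMUSG00000027318, chromosome 2, 130892511 to 130905734), a protease gene of mesenchymal cells, had 10.4, 8.45, 7.83, 7.18 and 6.69 CPM in injured-sire replicates 12, 13, 14, 15 and 17. The uninjured-sire libraries had 3.95, 5.34 and 7.77 CPM as lowest, median and highest, so 3 injured-sire libraries lay above all of them. Replicate 16 had 5.24 CPM, below the other 5 of its group. The log2 fold change of Adam33 was 0.47 ± 0.168 (SE), and it did not pass the threshold.

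Adam12 (ENSMUSG00000054555, chromosome 7, 133484928 to 133833875), a gene of fibroblasts and regenerating muscle, varied more among the uninjured-sire libraries than among the 5 injured-sire libraries. It lay between 3.82 and 5.32 CPM in the 5 injured-sire libraries, and between 1.03 (replicate 20) and 6.77 CPM (replicate 18) in the uninjured-sire libraries. The coefficient of variation of Adam12 was 13.1% in the injured-sire and 61.0% in the uninjured-sire group. Replicate 16, at 2.66 CPM, lay below the other 5 injured-sire libraries and brings that group's value to 22.8%, and the difference in spread was not tested. The log2 fold change of Adam12 was 0.35 ± 0.407 (SE), with a 95% confidence interval from -0.55 to 1.246. Adam8 (ENSMUSG00000025473, chromosome 7, 139558845 to 139572475), a protease gene of neutrophils and macrophages, rested on 28 to 228 counts per library. It ranged from 1.02 to 6.27 CPM in injured-sire and from 0.832 to 3.59 CPM in uninjured-sire libraries, with a log2 fold change of 0.50 ± 0.488 (SE). Replicate 16 had 1.42 CPM of Adam8. For Adam8 and Adam12 the intervals are too wide to place the difference on either side of 0, and single libraries carried much of the fitted values. Without injured-sire replicate 14 the value of Adam8 was 0.09, and that of Adam12 was 0.15 without uninjured-sire replicate 20 and 0.61 without replicate 18.

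Of the 2 members without the zinc-binding pattern, Adam22 (ENSMUSG00000040537, chromosome 5, 8122352 to 8418160) leaned the way of Adam19. It had 13.3, 13.4, 10.5, 8.85 and 10.3 CPM in injured-sire replicates 12, 13, 14, 15 and 17, against 12.1, 14.4 and 16.97 CPM as lowest, median and highest in uninjured-sire libraries. The groups overlapped, with 3 injured-sire libraries below and 3 uninjured-sire libraries above the range of the other group, and replicate 16 had 13.6 CPM. The log2 fold change of Adam22 was -0.36 ± 0.127 (SE), and it did not pass the threshold. Adam23 (ENSMUSG00000025964, chromosome 1, 63485050 to 63635435) ranged from 4.10 to 7.13 CPM in injured-sire and from 3.22 to 6.62 CPM in uninjured-sire libraries, with a log2 fold change of 0.18 ± 0.179 (SE). Replicate 16 had 4.89 CPM of Adam23.

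Over the 10 members, 4 had fitted values below 0 and 6 above, where 49.9% of all genes tested lay below 0. The median of the members was 0.11 on the log2 scale, against 0.0002 over all genes tested. An unadjusted edgeR p below 0.05 was reached by Adam9, Adam19, Adam22 and Adam33, where 8.96% of all genes reached it, and nothing is read from these counts since the contrast had a part in the choice.

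**Figure D3:**
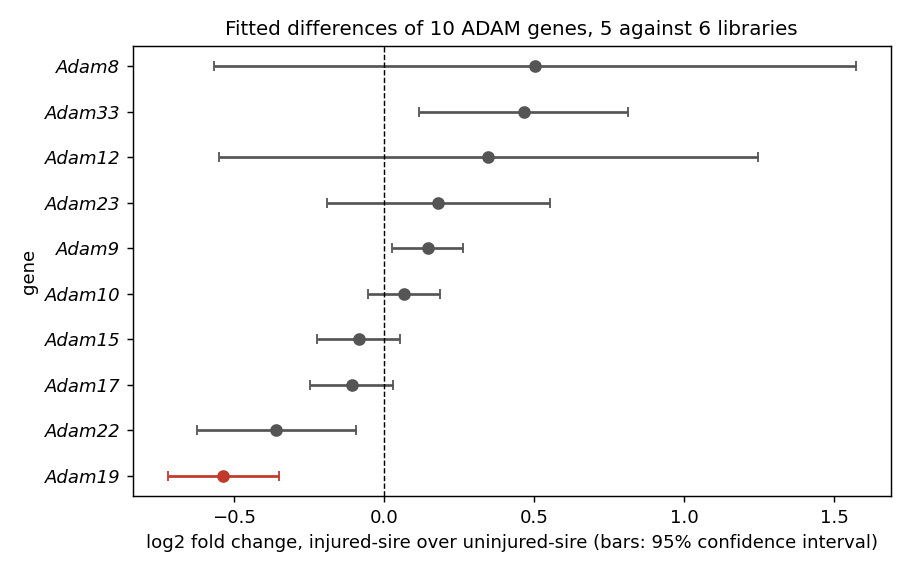
Fitted log2 fold change (injured-sire over uninjured-sire, 5 against 6 libraries) of each ADAM gene with its 95% confidence interval. Adam19, in red, lies at -0.53, the intervals of Adam22, Adam9 and Adam33 also leave out 0, and those of Adam8 and Adam12 are the widest.

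To see which genes went up and down with Adam19 apart from the difference between the groups, the group mean was subtracted from each gene's log2 CPM and the remainders were correlated over the 12 libraries, as a description. Pearson r of the other members with Adam19 ran from -0.60 (Adam12, Spearman rho -0.57) to 0.22 (Adam22, rho 0.36). The middle 90% of 12310 eligible genes ran from -0.50 to 0.50. Adam12 lay below that span, at rank 12062 from the highest r, and the other members lay inside it. With replicate 16 left out, r of the members ran from -0.54 (Adam12) to 0.42 (Adam33), with Adam22 at 0.07. Over all 45 pairs of members, r ran from -0.76 (Adam8 with Adam9) to 0.51 (Adam10 with Adam33), with a median of -0.05. The genes most like Adam19 were Jmjd6 (r 0.87, rho 0.90), Ackr2 (0.86, rho 0.87), Airn (0.85, rho 0.68), Rad51ap1 (0.84, rho 0.80) and Gbp4 (0.84, rho 0.91). The genes most opposite were Stxbp2 (r -0.90, rho -0.95), Myof (-0.90, rho -0.92) and Epn3 (-0.87, rho -0.90).

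None of these 8 genes passed the test between the groups (edgeR), and they are the extremes of 12310 genes over only 12 libraries. Without injured-sire replicate 13 and uninjured-sire replicate 18, the 2 farthest from the median of Adam19, r was 0.74 for Jmjd6, 0.80 for Ackr2, 0.68 for Airn, 0.66 for Rad51ap1 and 0.82 for Gbp4. It was -0.89 for Stxbp2, -0.92 for Myof and -0.80 for Epn3 over the same 10 libraries. By r over these 10 libraries, Jmjd6 ranked 97, Ackr2 38, Airn 198, Rad51ap1 249 and Gbp4 23 from the highest. Stxbp2 ranked 12307, Myof 12310 and Epn3 12267, so the order at the top did not hold.

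The genes around the family, in 12 lists of other proteases, their maturation factors, inhibitors, substrates and receptors, held 121 tested genes, and 0 of them were called in edgeR, where 0.105% of all genes were called. In edgeR 18 had an unadjusted p below 0.05, where 8.96% of all genes did. The DESeq2 Wald test called 1, Sdc4, of the 116 to which it gave an adjusted p, where it called 0.905% of all such genes, and 18 had an unadjusted p below 0.05, against 9.56% of all genes. With limma voom 0 were called, where 0.123% of all genes were, and 20 had an unadjusted p below 0.05, against 9.75% of all genes. In the fit, 69 were above and 52 below 0, with a median log2 fold change of 0.02.

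Of 25 other ADAM genes listed, 24 were found and 7 were tested, and 11 had no count in any of the 12 libraries, among them Adam7, Adam18, Adam24 and Adam29, which are known from the male reproductive tract. Adam11, a further member without protease activity, was the most abundant of these at 17.98 CPM in injured-sire and 17.6 CPM in uninjured-sire libraries, a value looked up after the data had been seen. The lymphoid gene Adam28 (1.92 ± 1.06, log2, SE) and the dendritic-cell gene Adamdec1 (2.36 ± 0.957) had at most 61 and 24 counts in a library. Of 16 tested ADAMTS proteases, secreted relatives that cut matrix, 10 were above and 6 below 0, with Adamts4, an aggrecan-cutting enzyme, at -0.66 ± 0.303 and Adamts2, a procollagen-processing enzyme, at 0.11 ± 0.0525.

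Among 18 maturation and trafficking factors, 6 were above and 12 below 0. Rhbdf2, the iRhom that carries Adam17 to the cell surface, was at -0.17 ± 0.0826, and Pcsk5, a proprotein convertase, at 0.35 ± 0.141 (log2, SE). All 5 inhibitors were above 0 in the fit, and Timp3, the matrix-bound inhibitor that acts on several ADAM proteases, had 413 ± 29.7 CPM (SD, n = 5) in injured-sire and 352 ± 41.5 CPM (SD, n = 6) in uninjured-sire libraries, a log2 fold change of 0.23 ± 0.0719. Timp2 was at 0.11 ± 0.0557 and Reck at 0.18 ± 0.105, while Timp1 (0.0044 ± 0.197) and Timp4 (0.014 ± 0.236) lay close to 0. None of the 5 passed the threshold (edgeR adjusted p = 0.291 for Timp3 and 0.574 for Timp2).

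For the ligands and receptors that ADAM proteases cut, the fit was split. Of 7 tested neuregulin and EGF-family ligands 4 were above and 3 below 0, with Nrg4 at 0.76 ± 0.463 and Tgfa at 0.48 ± 0.307, and of 4 ErbB receptors 2 lay on each side, with Egfr at -0.12 ± 0.106 and Erbb3 at 0.03 ± 0.0963. In the Notch list 6 were above and 7 below 0. Its lowest p belonged to 2 ligands, Jag1 with 17.8 ± 2.03 CPM (SD, n = 5) in injured-sire and 22.7 ± 2.79 CPM (SD, n = 6) in uninjured-sire libraries, at -0.35 ± 0.0956 (log2, SE), and Dll4, at -0.26 ± 0.0876. The γ-secretase list, the enzyme that makes the next cut, had 5 of 7 above 0, with Aph1a at 0.13 ± 0.0683 and Aph1b at 0.15 ± 0.129.

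Of 23 other shed proteins 13 were above and 10 below 0. Sdc4, a cell-surface heparan sulfate proteoglycan, had 33.9 ± 6.56 CPM (SD, n = 5) in injured-sire and 23.8 ± 2.66 CPM (SD, n = 6) in uninjured-sire libraries, at 0.51 ± 0.118 (log2, SE; edgeR adjusted p = 0.136). Tnfrsf1b, a receptor of tumour necrosis factor, was at -0.44 ± 0.143. Among the LGI ligands of Adam22 and Adam23, 3 of 4 were above 0, with Lgi2 at 0.52 ± 0.185 and Lgi4 at 0.09 ± 0.148. Of 11 integrins 7 were above 0, with Itga5 at 0.06 ± 0.0550 and Itgb7 at -0.66 ± 0.322. Of 6 membrane-type matrix metalloproteases and gelatinases 3 were above 0, with Mmp14 at -0.16 ± 0.0624 and Mmp15 at -0.16 ± 0.0675.

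**Figure D4:**
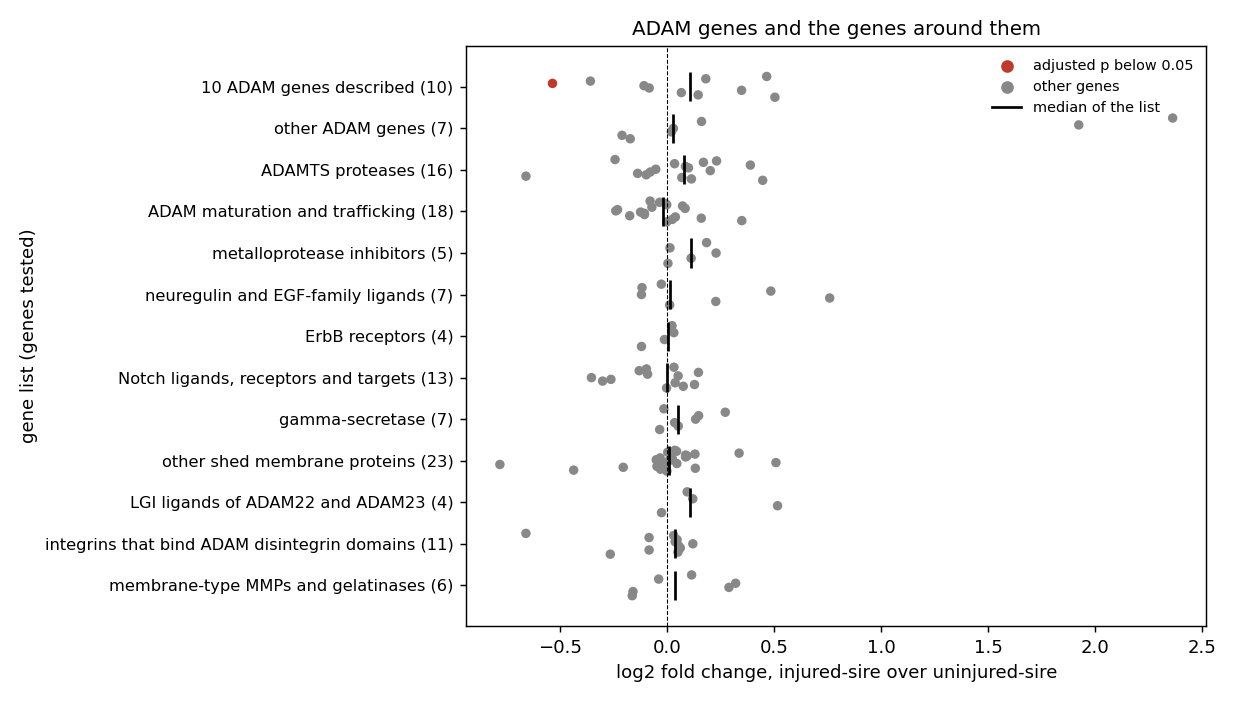
Log2 fold change (injured-sire over uninjured-sire) of each tested gene in the list of 10 ADAM genes and in 12 lists of related genes, with the number of genes tested in brackets and a bar at each list's median. Adam19 is the only gene marked as passing the threshold, and the list medians lie between -0.02 and 0.11.

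Markers of the heart's cell types were checked beside Adam19. Totals per library ran from 30537315 to 42090257 counts, and summed cardiomyocyte markers lay at 65906 to 77075 CPM in the 5 injured-sire and 62317 to 71952 CPM in the 6 uninjured-sire libraries, and all 7 markers passed the filter on low counts. None of the 10 summed marker lists separated the groups, although the most abundant markers lead such sums. Endothelial sums ran from 1125 to 1285 and from 1157 to 1253 CPM in the same 2 groups, fibroblast sums from 2993 to 3343 and from 2638 to 3364, and macrophage sums from 218 to 284 and from 251 to 304. Smooth muscle and pericyte sums came nearest to separation, from 1955 to 2230 and from 1701 to 1957 CPM. Neutrophil (3.09 to 20.6 and 2.94 to 29.2), lymphoid (3.46 to 8.94 and 2.35 to 23.7), glial (27.6 to 52.0 and 23.5 to 38.2), fat (1159 to 1643 and 832 to 1530) and airway and lung sums (33.6 to 550 and 0.359 to 337) overlapped as well, with airway and lung medians of 215 and 2.52 CPM. Replicate 16 lay below the injured-sire range in glial (20.1 CPM) and airway and lung sums (0.430 CPM). It lay just above that range in neutrophil sums (20.9 CPM) and inside it in the others.

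Of the 69 single markers tested 0 were called in edgeR, and 14 had an unadjusted p below 0.05, where 8.96% of all genes did. Among them were 4 contractile smooth muscle genes, with fitted log2 fold changes of 0.38 ± 0.0954 (SE) for Acta2, 0.47 ± 0.189 for Myh11, 0.45 ± 0.157 for Tagln and 0.69 ± 0.299 for Cnn1. Kcnj8 of the same list was also among them, at -0.16 ± 0.0753, while Pdgfrb, Rgs5 and Abcc9 lay at 0.07, 0.0055 and -0.08. Of the fibroblast markers among them, Col1a1 (0.18), Col1a2 (0.16) and Postn (0.24) were above 0 and Dcn (-0.15) below. The macrophage genes Cx3cr1 (-0.71 ± 0.200), Fcgr1 (-1.05 ± 0.312) and C1qa (-0.24 ± 0.0734) had fitted values below 0. Of 10 macrophage markers 8 lay below 0, and Cd68 (0.14) and Mrc1 (0.0008) above. All 7 fat markers, all 5 tested neutrophil and all 5 tested airway and lung markers were above 0 in the fit, and all 6 tested lymphoid markers below. These markers were named after their values had been seen. The part of these cell types in the level of Adam19 was not tested.

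Clock genes were looked at beside Adam19 as well. Of 12 tested, 1 was called in edgeR, where 0.105% of all genes were called. It was Npas2, a clock activator, at -1.05 ± 0.165 on the log2 scale (SE, edgeR adjusted p = 0.00998). An unadjusted edgeR p below 0.05 was reached by 9, where 8.96% of all genes reached it. The clock genes were chosen with earlier results of these data known, so nothing is read from these counts. All 9 repressors and outputs were above 0 in the fit and all 3 activators below. A clock score, the mean log2 CPM of 9 repressors and outputs minus that of 3 activators, was 2.33, 2.57, 2.74, 2.36 and 1.09 in injured-sire replicates 12, 13, 14, 15 and 17. In the uninjured-sire libraries it was 0.14 at the lowest, 0.46 at the median and 1.85 at the highest, so the groups overlapped. Replicate 16 had a score of 1.52. With the score as a covariate the log2 fold change of Adam19 was -0.47 ± 0.147 (SE), without a call (edgeR adjusted p = 0.607). In that fit 0 genes passed the threshold in edgeR, with 937 at an unadjusted p below 0.05.

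The promoter of Adam19 is shown beside these values, with the E-box CACGTG, a sequence that clock activators can bind, in capitals. The windows are RefSeq entries on GRCm38.p6, from 250 bases before to 50 after an annotated start, read on the plus strand. The first, at chr11:46054252-46054551, belongs to the upstream start, and the second, at chr11:46055734-46056033, contains the start of the coding transcript used above.
Adam19 upstream start: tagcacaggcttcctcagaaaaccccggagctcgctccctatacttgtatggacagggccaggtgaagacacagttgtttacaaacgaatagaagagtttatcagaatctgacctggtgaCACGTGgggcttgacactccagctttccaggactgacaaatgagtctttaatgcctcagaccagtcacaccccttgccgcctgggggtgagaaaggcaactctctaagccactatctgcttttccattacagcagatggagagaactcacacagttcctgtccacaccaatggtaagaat
Adam19 second start: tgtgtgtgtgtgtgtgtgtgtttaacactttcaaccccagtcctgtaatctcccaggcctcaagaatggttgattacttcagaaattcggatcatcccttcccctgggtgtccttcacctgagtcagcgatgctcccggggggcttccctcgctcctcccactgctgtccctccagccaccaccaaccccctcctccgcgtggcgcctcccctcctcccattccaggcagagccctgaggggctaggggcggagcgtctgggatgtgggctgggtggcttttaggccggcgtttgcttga
The E-box, which reads the same on both strands, occurs once in the first window, 130 bases before the start, and not in the second or in a further window inside the gene. Of 32851 windows of 300 bases in the table, 7.15% hold it. Of the 7 members with entries, Adam10 also holds it, Adam8, Adam15, Adam17, Adam22 and Adam23 do not, and Adam9, Adam12 and Adam33 were not matched. A match is a description of these letters only, and the counts do not say which start was used.

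**Figure D5:**
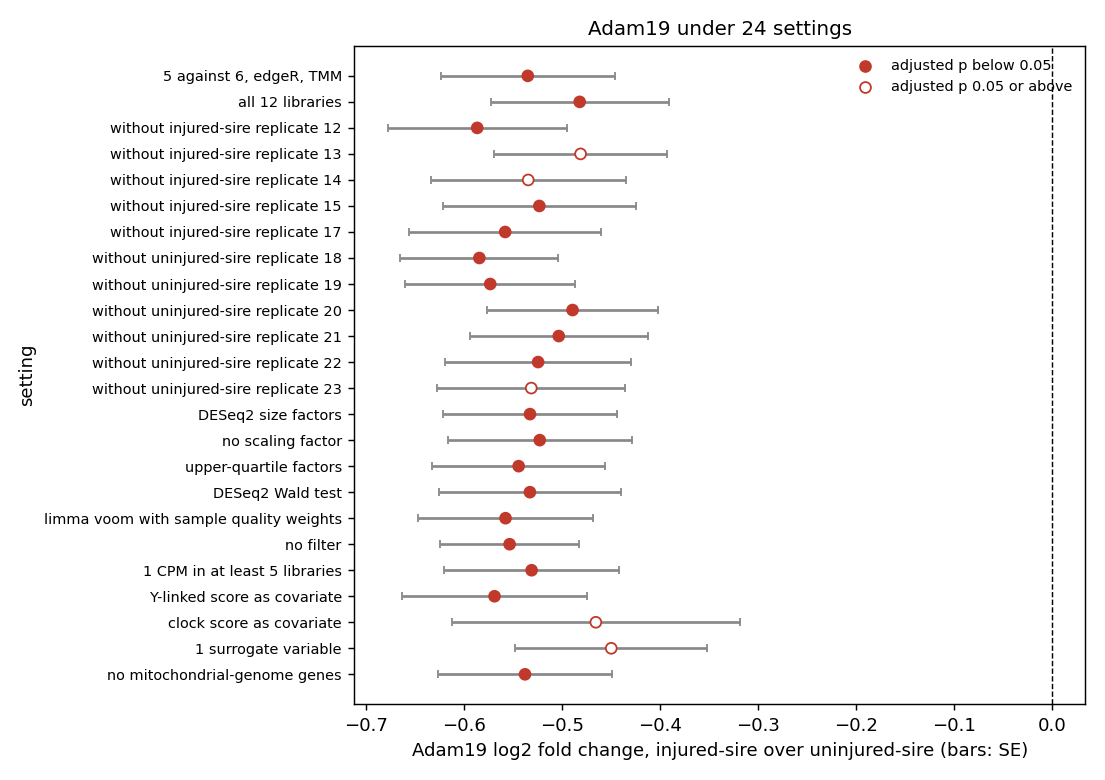
Log2 fold change of Adam19 (injured-sire over uninjured-sire, with SE) in the comparison of 5 with 6 libraries and under 23 alternatives, filled where the adjusted p was below 0.05 and open where it was not. All values lie below 0, between -0.59 and -0.45, and 5 alternatives are open.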

How the data were processed

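The deposited table holds raw read counts per Ensembl gene of 12 heart ventricle libraries, without normalization. Per the file headers, featureCounts 2.1.1 counted by strand, with no option for multi-mapping reads, on GRCm39 with Ensembl release 114. STAR 2.7.10a and Subread 2.0.3 appear in the submitters' processing notes. The table has 11 other sample columns, which were left unused. Of 78317 gene IDs, 51487 matched a symbol of GENCODE M21 (99.3% of counts). No same-strand exon of another gene overlapped a member. Replicate numbers come from the titles. Within groups, all 30 library pairs differed beyond sampling noise (chi-square over degrees of freedom, 13.3 to 40.3). Sires and litters are not labelled, so p-values cover only the spread among these samples.

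The members and lists were chosen with earlier results of these data known. In R 4.3.3, edgeR 4.0.16 (filterByExpr, minimum count 10 and total 15, TMM factors, robust quasi-likelihood F test, two-sided, Benjamini-Hochberg over 17130 genes, threshold 0.05) compared 5 injured-sire with 6 uninjured-sire libraries, and was tested on simulated data. CPM use TMM factors over all 12 libraries, log2 CPM a prior count of 2, and TPM the deposited summed exon length (column of other unit). SEs come from the F statistic. From each list of related genes, called genes were named, or else the 2 with the smallest p. For likeness the 5 highest and 3 lowest r were named among genes of at least 0 mean log2 CPM with a full symbol. Alternatives used DESeq2 1.42.0, limma 3.58.1 and sva 3.50.0.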

Additional observations from a re-analysis of the deposited data

Results flagged for a closer look

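Adam23 in uninjured-sire replicate 22 was 1.71 log2 CPM, while the other 5 libraries of its group lay between 2.45 and 2.74, so the gap made up 0.719 of the group's whole range. A gap above the threshold of 0.625 is expected by chance in about 1 of 20 groups of 6 libraries. In all, 20 groups of 5 or 6 libraries were looked at (10 genes in 2 groups). Without that library the log2 fold change of Adam23 was 0.06, against 0.18 with it, and it was called in neither.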

How the results depend on the processing

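Adam19 was lower under all 23 alternatives, between -0.59 and -0.45 on the log2 scale, and called in 18 of them (edgeR, DESeq2 or limma adjusted p from 3.5e-11 to 0.607). It was not called with the clock score as a covariate (-0.47, adjusted p = 0.607) or with 1 surrogate variable (-0.45, adjusted p = 0.0921), where 0 members were called. With single libraries left out it ranged from -0.59 to -0.48 (edgeR adjusted p 0.00258 to 0.0631) and the members called from 0 to 1. The number of genes called, 18, ranged from 8 to 43 with single libraries left out (leaving out injured-sire replicate 12 gave 28, 13 gave 8 and 14 gave 9, and leaving out uninjured-sire replicate 22 gave 43 and 23 gave 9). Its split of 9 higher and 9 lower became 17 and 8 with no scaling factor, 7 and 12 with upper-quartile factors and 17 and 4 with the surrogate variable. The number of genes called was 134 with the DESeq2 Wald test, 236 with no filter, 28 with 1 CPM in at least 5 libraries and 0 with the clock covariate. Of 207 values of the other 9 members under the alternatives, 203 kept their sign and were not called. The sign changed with the clock covariate for Adam8 (-0.27), Adam10 (-0.075) and Adam15 (0.13), and with the surrogate variable for Adam8 (-0.25), and the cause was not tested. The rank of Adam19 by level was 4, and 5 with GENCODE M21 transcript lengths. The median of all genes moved by at most 0.03. No paired analysis was possible because the groups share no replicate numbers. Adam8, Adam12 and Adam23 rest on few counts, which limits their precision.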
